A study of Mus musculus with 39 samples.

Results

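The genes described here mark T cells and natural killer (NK) cells in whole mouse lung. The list holds 37 genes, and each was read from a probe set that the array's annotation gives to that gene alone, taking the one with the highest mean log2 signal over all 39 arrays. A probe set of their own was found for 35 of the 37, and 34 were bright enough to be tested, of 13020 genes tested in all. Lck, a kinase that starts T cell receptor signalling, had no such probe set, and Klrb1c, the NK1.1 antigen, had only 1 shared with another gene, so neither was analysed here. Cd4, the coreceptor of helper T cells, had a mean log2 signal of 1.69, below the limit of 3.43, and Foxp3 at 3.44 and Ctla4 at 3.68 lay just above it.

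The mice were outbred Crlj:CD1(ICR) females fed a powdered diet. It contained nothing further (control), 5000 or 10000 ppm of the pyrethroid insecticide permethrin, or 2500 ppm of the tuberculosis drug isoniazid, which per the labels was the positive control for inducing tumours (organ not named). Feeding lasted 7 or 14 days. Animals of the 7-day groups were 11 weeks old and those of the 14-day groups 12 weeks, so duration and age cannot be told apart. There were 8 groups of 5 animals, the higher permethrin dose at 14 days having 4, and the labels call the animals biological replicates.

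T cells recognise antigen through a receptor that signals only together with the CD3 chains, and coreceptors, costimulatory receptors and kinases set the strength of that signal. NK cells lack this receptor and act through a balance of activating and inhibitory receptors, but they share with cytotoxic T cells the granzymes and perforin that kill target cells. In lung, circulating T cells and NK cells mix with resident T cells, many of which carry the integrin CD103. Itgae encodes the alpha chain of CD103, which pairs with the beta 7 chain and binds E-cadherin on epithelium. CD103 is also carried by a class of conventional dendritic cells (dendritic cell 1).

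The tissue label fitted its markers, since all 8 epithelial markers, surfactant genes among them, passed the limit and their mean log2 signal per group lay between 10.75 and 10.9. As a sign of RNA quality, the log2 ratio of the 3' over the 5' Gapdh probe set (higher in degraded RNA) ran from -0.38 to 1.76 and exceeded 0.7 in 7 arrays, all of 14-day groups. Those were control replicates 4 and 5, isoniazid replicates 3 and 5, permethrin 5000 ppm replicates 4 and 5 and permethrin 10000 ppm replicate 3. In whole tissue, fewer cells of a type and less RNA per cell cannot be told apart.

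Of the 34 tested genes, Itgae was the only one that passed the threshold in any of the 16 comparisons made. The threshold was an adjusted p of 0.05 in limma (Benjamini-Hochberg over all 13020 genes). With isoniazid for 14 days, 1 of the 34 genes was called, against 0.0307% of all genes, or 0.0154% when only falls are counted. In the mean of both times it was also 1, against 0.392% of all genes, or 0.169% when only falls are counted. At an unadjusted p under 0.05 stood 4 of the 34 at 14 days and 4 in the mean, against 6.03% and 9.14% of all genes. Isoniazid for 7 days gave 0 called genes of the 34, against 0.0461% of all genes (0.0154% for falls), with 3 (of all genes 6.52%) at an unadjusted p under 0.05.

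Permethrin changed the level of none of the 34 genes past the threshold in limma. At 5000 ppm the called share of all genes was 0.0922% at 7 days, 0.131% at 14 days and 0.223% in the mean of both times, and the 34 genes had 2, 1 and 3 at an unadjusted p under 0.05, against 1.99%, 5.22% and 3.73% of all genes. At 10000 ppm the shares were 0.238%, 0.215% and 0.499%, with 2, 1 and 4 of the 34 genes at an unadjusted p under 0.05, against 3.15%, 6.04% and 6.52% of all genes. The higher against the lower dose called 0.00768% of all genes and none of the 34. Of the 34 genes 0 reached an unadjusted p under 0.05, against 3.35% of all genes. The higher dose against isoniazid called 0.353% of all genes and 1 of the 34, again Itgae. No gene of the 13020 was called for a change of any treatment effect from 7 to 14 days (0% for each), with 371, 293 and 384 at an unadjusted p under 0.05 for the lower dose, the higher dose and isoniazid, of which 0, 0 and 2 were among the 34. Control lungs at 14 against 7 days gave 0.115% of all genes and 0 of the 34. At an unadjusted p under 0.05 stood 1 of the 34, against 13.9% of all genes. A difference anywhere among the 8 groups was called for 2.15% of all genes and for 1 of the 34.

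Itgae, the CD103 chain, had a lower signal in isoniazid lungs than in control lungs. Its brighter probe set gave log2 signals of 6.47, 6.66, 6.30, 5.82 and 6.30 in the 7-day control lungs and 5.17, 5.56, 5.56, 5.61 and 5.43 in the 7-day isoniazid lungs. At 14 days the control lungs read 6.39, 5.44, 6.37, 6.71 and 6.51 and the isoniazid lungs 5.26, 5.29, 3.99, 4.91 and 4.89. The groups did not overlap at either time, although control replicate 2 at 14 days lay close to the isoniazid animals. Itgae was the only one of the 34 genes without overlap in these comparisons, in which 1.94% of all genes at 7 days and 0.591% at 14 days had none. Over both times together 0 of the 34 genes, and 0.0307% of all genes, were without overlap. Even so, 7 of the 10 isoniazid lungs lay below the lowest control lung of either time.

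The fitted log2 change of Itgae with isoniazid was -1.42 (SE 0.25, limma adjusted p = 0.00938) at 14 days, a signal 2.67 times lower. In the mean of both times it was -1.13 (SE 0.17, limma adjusted p = 0.000635), a signal 2.19 times lower. At 7 days the log2 change of -0.85 (SE 0.25) did not pass, with a limma adjusted p of 0.339. The change from 7 to 14 days, -0.57 (SE 0.35), did not pass either. The 14-day call was lost when only the compared groups were fitted (log2 change -1.42, adjusted p = 0.331), with array weights (-1.19, 0.161), without control replicate 4 (-1.31, 0.0866) or without isoniazid replicate 3 (-1.2, 0.0788). Without the 7 arrays of high Gapdh ratio the 14-day log2 change was -0.91 (adjusted p = 0.858), while the call in the mean of both times was kept under each of these settings.

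Permethrin lungs had mean Itgae signals below those of the controls, with no change past the threshold. At 7 days they read 6.18, 5.92, 5.81, 5.76 and 5.79 with 5000 ppm and 6.53, 6.38, 6.26, 5.94 and 5.94 with 10000 ppm. At 14 days they read 6.26, 6.17, 5.53, 5.87 and 6.43 with 5000 ppm and 6.80, 6.25, 5.11 and 5.68 with 10000 ppm. Each of these groups overlapped the control group of its time, although with 5000 ppm at 7 days 5.81, 5.76 and 5.79 lay under the lowest control lung, 5.82. Log2 changes were -0.42 and -0.23 with 5000 ppm and -0.10 and -0.32 with 10000 ppm at 7 and 14 days, each with an SE of 0.25 or 0.26, and the smallest limma adjusted p among them was 0.963. The value with 10000 ppm at 14 days turned to 0.18 without the arrays of high Gapdh ratio. In the mean of both times the log2 changes were -0.32 with 5000 ppm and -0.21 with 10000 ppm, and neither passed.

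By group mean, Itgae was highest in control lungs at 7 days (6.31 ± 0.31, SD, n = 5) and 14 days (6.28 ± 0.49, n = 5). Next came permethrin 10000 ppm at 7 days (6.21 ± 0.26, n = 5), then permethrin 5000 ppm at 14 days (6.05 ± 0.36, n = 5), permethrin 10000 ppm at 14 days (5.96 ± 0.73, n = 4) and permethrin 5000 ppm at 7 days (5.89 ± 0.17, n = 5). Isoniazid lungs stood last, with 5.47 ± 0.18 at 7 days and 4.87 ± 0.53 at 14 days (n = 5 each). Neighbouring means among the first 6 groups lay closer together than their SDs. Against isoniazid, the higher permethrin dose had more Itgae signal by 0.92 on the log2 scale (SE 0.18, limma adjusted p = 0.00444, 1.89 times) in the mean of both times.

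The other Itgae probe set had group means of 4.55 ± 0.51 in control and 3.98 ± 0.28 in isoniazid lungs at 7 days, and 4.63 ± 0.28 and 3.52 ± 0.38 at 14 days (n = 5 each). At 14 days these groups did not overlap, with control values of 4.24 to 4.91 and isoniazid values of 2.85 to 3.79, while at 7 days they did. Tested beside all probe sets that carry 1 gene symbol, its log2 change in the mean of both times was -0.84 (SE 0.18, limma adjusted p = 0.0342), and that of the brighter probe set in the same fit was -1.13 (adjusted p = 0.00114). Neither time alone passed for the dimmer probe set (adjusted p = 0.864 and 0.206). Haspin, a histone kinase gene that lies within Itgae in the RefSeq annotation, had a log2 change of -0.16 (SE 0.20, limma adjusted p = 0.872) with its own probe set in the mean of both times.

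**Figure D1:**
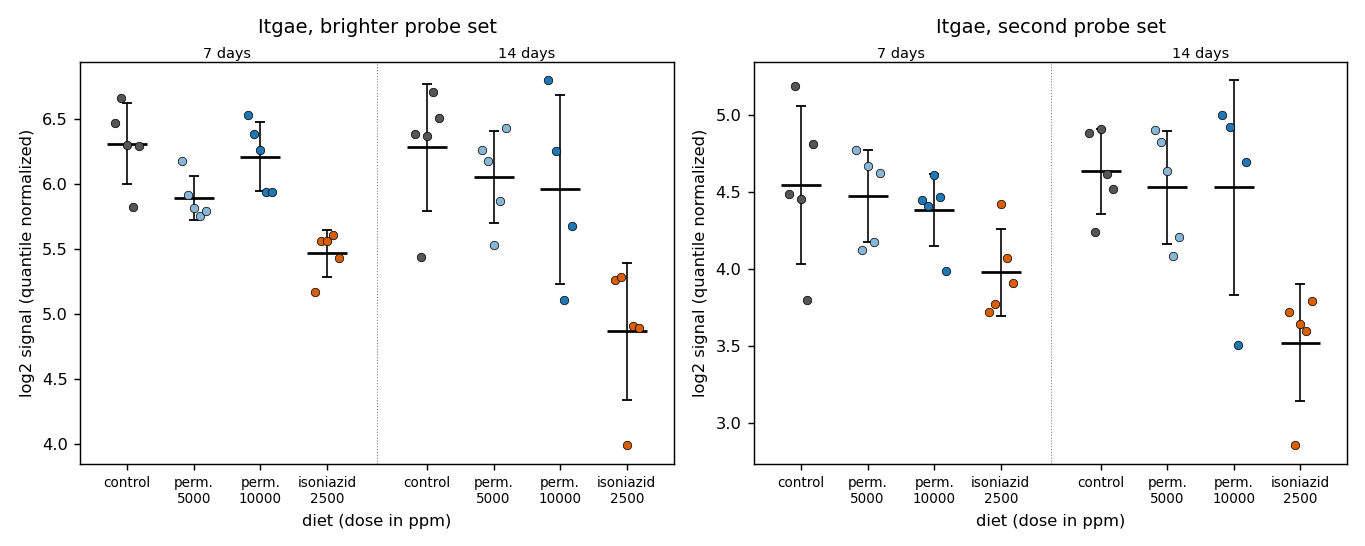
Quantile-normalized log2 signal of both Itgae probe sets (vertical axes) in each lung by diet and time (horizontal axes), with points for animals and bars for the group mean ± SD. In the brighter probe set the isoniazid lungs reached at most 5.61 at 7 days and 5.29 at 14 days, below every control lung of the same time, of which the lowest were 5.82 and 5.44.

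Itgal, the alpha chain of the leukocyte integrin LFA-1 and the other integrin of the list, had a log2 change of 0.07 with isoniazid in the mean of both times. Its group means lay between 7.48 and 7.75.

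The CD3 chains, the signalling part of the T cell receptor complex, showed overlapping ranges between every treated group and its control. Cd3d encodes the delta chain and read 6.16, 6.93, 6.29, 6.71 and 7.18 in 7-day control lungs and 6.40, 6.86, 7.09, 6.99 and 7.28 in 7-day isoniazid lungs. At 14 days it read 7.05, 6.16, 6.73, 7.63 and 7.18 in control and 7.18, 6.82, 6.22, 6.65 and 7.17 in isoniazid lungs. Permethrin lungs ranged from 6.39 to 7.58 at 7 days and from 6.60 to 7.41 at 14 days. The log2 changes of Cd3d in the mean of both times were 0.20, 0.26 and 0.06 with the lower dose, the higher dose and isoniazid.

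Cd3g, the gamma chain, ran from 5.90 to 6.63 in 7-day control lungs and from 6.15 to 6.58 in 7-day isoniazid lungs, and from 5.80 to 7.11 and from 5.56 to 6.67 at 14 days. Its log2 change with isoniazid in the mean of both times was -0.03. Cd247, the zeta chain that also serves NK cell receptors, ran from 4.76 to 5.70 and from 4.87 to 5.80 at 7 days, and from 4.73 to 6.04 and from 4.54 to 5.61 at 14 days, with a log2 change of 0.01. For both genes the isoniazid and control ranges overlapped widely at each time.

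Cd3e, the epsilon chain, read 4.82, 5.24, 5.45, 5.62 and 5.60 in 7-day control lungs and 5.63, 4.84, 5.97, 5.79 and 5.72 in 7-day isoniazid lungs. At 14 days it read 5.33, 4.31, 5.22, 6.20 and 5.25 in control and 5.66, 5.45, 5.00, 2.77 and 5.37 in isoniazid lungs. A single animal, isoniazid replicate 4 at 14 days, lay far below the others. The log2 change of Cd3e with isoniazid was -0.08 in the mean of both times and -0.41 at 14 days. The mean of the 4 CD3 chains was 5.87 ± 0.30 in control and 6.05 ± 0.25 in isoniazid lungs at 7 days, and 6.0 ± 0.54 and 5.80 ± 0.53 at 14 days (SD, n = 5 each).

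**Figure D2:**
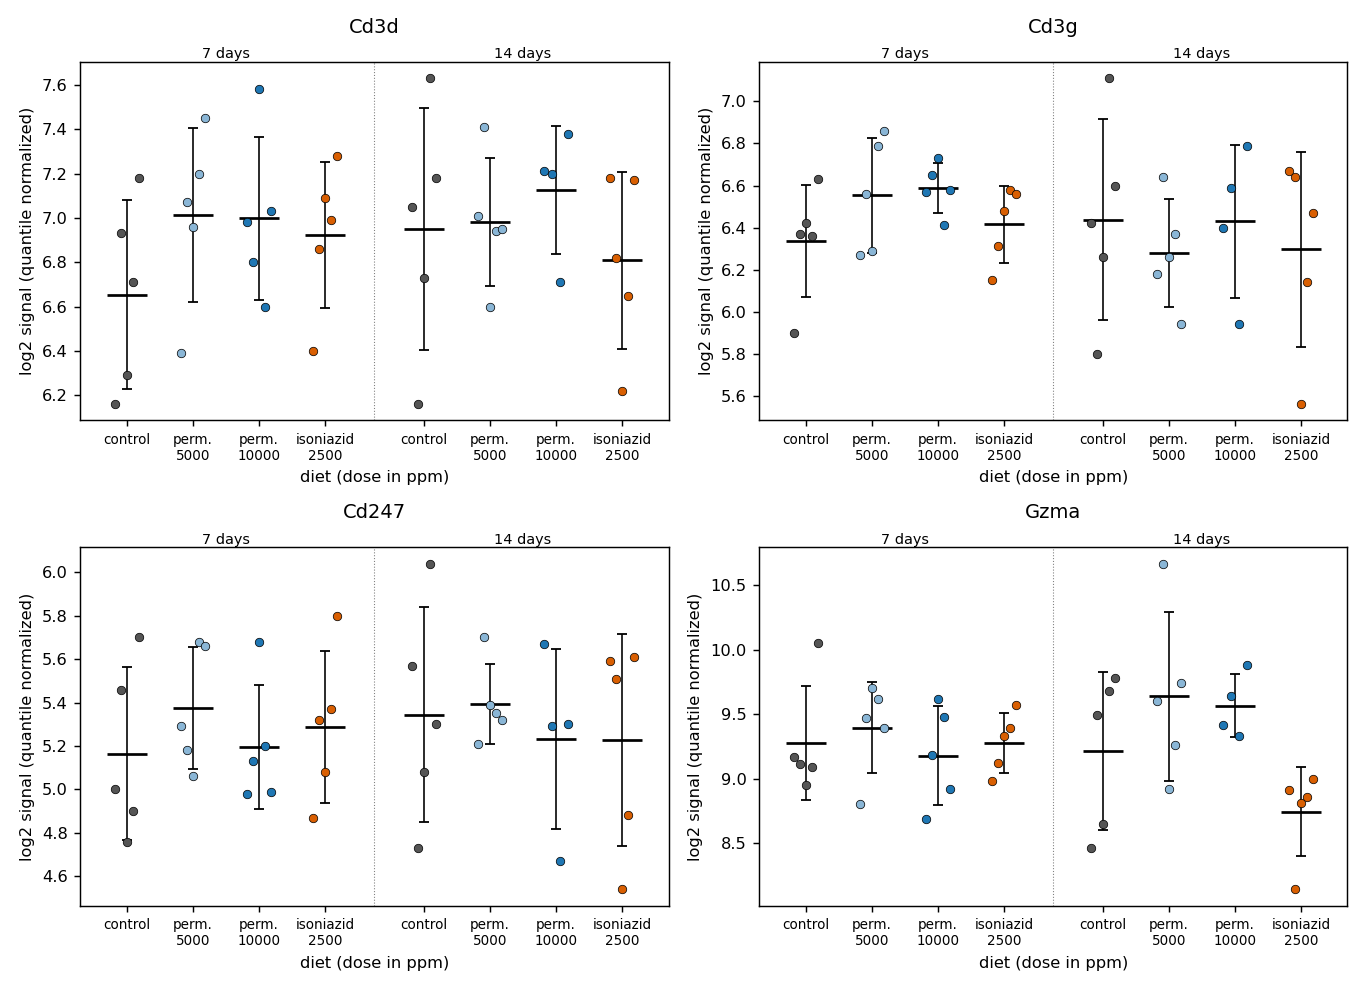
Quantile-normalized log2 signal of Cd3d, Cd3g, Cd247 and Gzma (vertical axes) in each lung by diet and time (horizontal axes), with points for animals and bars for the group mean ± SD. Isoniazid and control lungs overlap in every panel, and the isoniazid lungs at 14 days hold the lowest mean of Gzma, 8.74.

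The promoters of Cd3d and Cd3g are shown because these chains varied together most closely among the CD3 genes, as described further on. In RefSeq (GRCm38.p6) the genes point away from each other on chromosome 9, with starts 1355 bases apart. The windows run from 250 bases before to 50 after the start, at chr9:44981536-44981835 on the plus strand for Cd3d and chr9:44980382-44980681 on the minus strand for Cd3g. Capitals mark matches, on either strand, to the letters AGGTGT (T-box), CAGAC (SMAD) and AGGAAG (ETS).
Cd3d: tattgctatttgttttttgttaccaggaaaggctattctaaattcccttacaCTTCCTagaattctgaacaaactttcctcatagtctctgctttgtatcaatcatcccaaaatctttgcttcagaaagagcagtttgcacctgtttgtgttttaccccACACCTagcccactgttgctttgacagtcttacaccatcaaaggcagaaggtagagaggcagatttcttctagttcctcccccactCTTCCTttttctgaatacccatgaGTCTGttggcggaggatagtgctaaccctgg
Cd3g: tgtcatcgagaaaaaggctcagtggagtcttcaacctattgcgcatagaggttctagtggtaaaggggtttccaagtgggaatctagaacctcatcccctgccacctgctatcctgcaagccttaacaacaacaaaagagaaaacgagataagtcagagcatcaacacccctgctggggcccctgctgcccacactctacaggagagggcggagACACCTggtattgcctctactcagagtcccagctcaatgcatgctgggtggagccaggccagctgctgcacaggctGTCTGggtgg
The RUNX core TGTGGT was searched too and is in neither window.

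The kinases and adaptor of this group also stayed below the threshold. Lat, the adaptor that gathers signalling proteins below the receptor, had group means of 6.12 to 6.54, and its log2 changes in the mean of both times were 0.07, 0.24 and 0.03 with the lower dose, the higher dose and isoniazid. Zap70, the kinase that docks on phosphorylated CD3 chains, had log2 changes of 0.17, 0.24 and 0.46, the last with a limma adjusted p of 0.529. The probe set read for it was the brightest of 3. Between animals of the same group its signal had Pearson r of -0.122 to 0.075 with the CD3 chains and 0.018 with Lat. Whether it reports T cells here was not tested. Txk, a Tec family kinase, had log2 changes of 0.30, 0.15 and -0.04. Over the 7 tested genes of receptor and proximal signalling, the median log2 change was 0.17, 0.24 and 0.0055, with 7, 6 and 4 of them above 0.

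Among surface receptors, Cd6 had the smallest p of the 34 genes for both permethrin doses at 7 days. CD6 is an adhesion receptor that tunes T cell activation. It read 1.63, 4.24, 3.75, 3.82 and 4.38 in 7-day control lungs, 4.40, 4.76, 4.44, 4.76 and 4.41 with permethrin 5000 ppm and 4.00, 4.58, 4.85, 4.70 and 4.70 with permethrin 10000 ppm. The lower dose did not overlap with control, the only such gene of the 34, against 0.745% of all genes. With the higher dose at 7 days, the lower dose at 14 days and the higher dose at 14 days, 0 of the 34 genes were without overlap, against 1.05%, 0.968% and 1.87% of all genes. For Cd6, control replicate 1 stood far below the rest, and the control range otherwise reached 4.38, just under the lowest lung on the lower dose. Log2 changes were 0.99 (SE 0.40) and 1.0 (SE 0.40), with a limma adjusted p of 1 for both, and without control replicate 1 the changes were 0.51 and 0.52.

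With isoniazid, Cd6 read 4.82, 4.63, 4.29, 4.74 and 4.78 at 7 days. At 14 days isoniazid lungs read 3.96, 3.60, 3.42, 2.43 and 3.30, against 4.59, 1.87, 4.03, 4.24 and 4.38 in control lungs. The log2 change was 1.09 (SE 0.40, limma adjusted p = 0.592) at 7 days and -0.48 at 14 days. Without control replicate 1 the 7-day change was 0.60, and the 14-day change was -0.97 without control replicate 2 and -0.25 without isoniazid replicate 4. The change between times was -1.57 (SE 0.56) and did not pass (limma adjusted p = 1). Permethrin lungs at 14 days ran from 3.72 to 5.07.

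Cd5, a receptor that dampens T cell receptor signals, had the smallest p of the 34 genes for permethrin 10000 ppm at 14 days. It read 4.89, 3.88, 4.52, 4.6 and 4.82 in control and 5.18, 4.94, 4.70 and 5.22 in those permethrin lungs, which overlapped. The log2 change was 0.47 (SE 0.20, limma adjusted p = 0.717), and 0.42 (SE 0.14, limma adjusted p = 0.314) in the mean of both times. At 7 days Cd5 ran from 4.59 to 5.40 in control and from 4.90 to 5.63 with this dose.

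Cd8a and Cd8b1 encode the chains of the coreceptor of cytotoxic T cells. Their log2 changes in the mean of both times were 0.28 and 0.44 with the lower dose, 0.50 and 0.28 with the higher dose and 0.05 and 0.26 with isoniazid. Cd2, an adhesion receptor of T and NK cells, had 0.08, 0.07 and -0.05. Over the 5 tested genes of surface adhesion and coreceptors, 5, 5 and 4 lay above 0, with medians of 0.28, 0.42 and 0.16. Cd4 lay under the limit, and in a fit with no filter its log2 change with isoniazid was -0.50 (SE 0.26, limma adjusted p = 0.649).

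No costimulatory or regulatory T cell gene passed the threshold. Cd28, the main costimulatory receptor, had log2 changes of 0.26, 0.17 and 0.01 with the lower dose, the higher dose and isoniazid in the mean of both times. Icos, a costimulator of activated T cells, had 0.12, 0.09 and 0.22, and Ctla4, an inhibitory receptor, 0.18, 0.12 and 0.14. Foxp3, the transcription factor of regulatory T cells, had -0.15, 0.16 and 0.11. Ctla4 and Foxp3 sit just above the limit on low signals.

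The cytokine receptors also stayed below the threshold. Il7r, which carries the survival signal of resting T cells, had the smallest p with isoniazid after Itgae in the mean of both times. It was singled out after its values were seen. Its group means were 7.19 ± 0.34 in control and 7.46 ± 0.21 in isoniazid lungs at 7 days, and 6.99 ± 0.19 and 7.35 ± 0.17 at 14 days (SD, n = 5 each). The log2 change in the mean of both times was 0.31 (SE 0.11, limma adjusted p = 0.310), and it was also 0.31 with permethrin 10000 ppm (limma adjusted p = 0.539). Il2rb, the beta chain shared by the receptors of interleukins 2 and 15, had -0.10 with isoniazid.

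Gzma, granzyme A of cytotoxic granules, had a mean log2 signal of 9.28. It read 9.17, 9.11, 8.95, 9.09 and 10.05 in 7-day control lungs and 8.98, 9.12, 9.33, 9.39 and 9.57 in 7-day isoniazid lungs. At 14 days it read 8.46, 9.49, 8.65, 9.68 and 9.78 in control and 8.91, 8.14, 8.81, 8.86 and 9.00 in isoniazid lungs. Each pair of groups overlapped, and the log2 change with isoniazid was -0.23 in the mean of both times. Permethrin 5000 ppm at 14 days gave 9.60, 10.67, 8.92, 9.26 and 9.74, and the higher dose 9.42, 9.64, 9.33 and 9.88.

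The other effectors were Gzmb, granzyme B, Prf1, the pore former perforin, and Nkg7, a granule membrane protein. Their log2 changes in the mean of both times were 0.31, 0.16 and 0.27 with permethrin 5000 ppm and 0.15, -0.12 and 0.08 with permethrin 10000 ppm. With isoniazid they were 0.18, -0.32 and 0.16. The 4 effectors thus had no common direction with isoniazid, where 2 of them lay above 0.

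Promoters of Gzma and Nkg7 are shown because these genes varied together between animals, as described further on. Their windows are chr13:113100932-113101231 on the minus strand and chr7:43436888-43437187 on the plus strand (RefSeq, GRCm38.p6), with the same extent and capitals as above, and capitals here also mark the RUNX core TGTGGT.
Gzma: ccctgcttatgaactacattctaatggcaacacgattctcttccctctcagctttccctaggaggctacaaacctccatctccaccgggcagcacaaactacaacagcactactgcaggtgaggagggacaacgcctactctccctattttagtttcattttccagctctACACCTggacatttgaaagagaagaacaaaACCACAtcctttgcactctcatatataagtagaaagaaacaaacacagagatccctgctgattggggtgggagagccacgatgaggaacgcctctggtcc
Nkg7: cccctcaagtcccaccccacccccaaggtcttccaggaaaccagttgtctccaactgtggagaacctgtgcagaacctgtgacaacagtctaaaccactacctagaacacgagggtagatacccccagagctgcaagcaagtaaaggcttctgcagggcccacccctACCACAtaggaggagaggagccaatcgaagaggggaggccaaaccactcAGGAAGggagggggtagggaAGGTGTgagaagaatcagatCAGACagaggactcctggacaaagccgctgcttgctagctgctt
The RUNX core starts 50 bases before the Gzma start and 83 before the Nkg7 start, both as ACCACA on the strand shown. Of 37 listed genes, 25 matched a promoter entry, and the core was in 15 of these. They were Lat, Lck, Zap70, Txk, Il7r, Gzma, Gzmb, Prf1, Nkg7, Klrk1, Klrb1c, Ncr1, Xcl1, Cxcr6 and Cxcr3, so genes of both T cell receptor signalling and killing had it, while the CD3 genes, Eomes and Tbx21 did not. Counted by window, 51.6% of the 31 windows of these genes held the core, against 16.8% of all 32851 windows. The T-box letters were in 25.8% against 13.7%, the SMAD letters in 48.4% against 49.6% and the ETS letters in 61.3% against 35.4%. A match is a run of letters and not evidence of a bound factor. No entry was matched for Itgae, Cd2, Cd6, Cd4, Cd8b1, Cd28, Icos, Itgal, Il2rb, Klrd1, Ccl5 and Ccr7.

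Eomes, a transcription factor of NK cells and memory T cells, had the smallest p of the 34 genes for permethrin 5000 ppm at 14 days. It read 4.59, 5.19, 3.53, 5.08 and 4.95 in control and 5.34, 6.19, 5.04, 5.53 and 5.37 with that dose. The groups overlapped, with 4 of 5 treated lungs above the highest control lung. The log2 change was 0.83 (SE 0.26, limma adjusted p = 0.571) at 14 days and 0.58 (SE 0.18, limma adjusted p = 0.576) in the mean of both times. At 7 days Eomes ran from 4.52 to 5.41 in control and from 5.02 to 5.62 with that dose. With the higher dose at 14 days it ran from 4.72 to 4.95.

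Tbx21, the T-bet factor of cytotoxic and helper cells, had log2 changes of 0.16, -0.09 and -0.18 with the lower dose, the higher dose and isoniazid in the mean of both times. Klrd1 (CD94) and Klrk1 (NKG2D) are NK cell receptors of the lectin family, with -0.04 and -0.12 with isoniazid. Ncr1 encodes NKp46, an activating receptor that marks NK cells, and had -0.13. Over these 5 NK cell genes, Eomes included, 5, 4 and 1 lay above 0, with medians of 0.17, 0.12 and -0.12.

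Among chemokines and their receptors, Ccr7, which guides naive T cells and dendritic cells to lymph nodes, had the second smallest p with isoniazid at 14 days, and was singled out after its values were seen. It read 5.91, 5.20, 5.92, 6.51 and 5.80 in control and 5.54, 4.69, 4.52, 5.22 and 5.74 in isoniazid lungs, which overlapped. The log2 change was -0.73 (SE 0.25, limma adjusted p = 0.642), and -0.10 at 7 days, where control lungs ran from 5.01 to 6.29 and isoniazid lungs from 5.30 to 6.15. Xcl1, the chemokine that attracts dendritic cells through XCR1, was dim and scattered, with 14-day group SDs between 0.49 and 1.32. It had the largest positive log2 change of the 34 genes with isoniazid at 7 days, 1.24 (SE 0.52, limma adjusted p = 0.671), from 3.34 ± 0.57 to 4.59 ± 0.50 (SD, n = 5 each), against -0.64 at 14 days. The change between times, -1.88 (SE 0.74, limma adjusted p = 1), did not pass, and control lungs themselves differed by 1.16 between 14 and 7 days (limma adjusted p = 0.304). Ccl5, Cxcr6 and Cxcr3, a chemokine of cytotoxic cells and a pair of receptors of tissue T cells, had log2 changes of -0.08, 0.10 and 0.20 with isoniazid in the mean of both times.

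As a whole, the 34 genes had mostly small positive values with permethrin. In the mean of both times 31 of 34 lay above 0 with 5000 ppm and 27 with 10000 ppm, with median log2 changes of 0.16 and 0.12. By time, 29 and 28 lay above 0 with 5000 ppm at 7 and 14 days, where 46% and 48.7% of all genes did. With 10000 ppm 25 and 19 did, against 49.4% and 54.4% of all genes. Over all genes tested, in the mean of both times, 46.4% and 53.1% lay above 0, with medians of -0.0089 and 0.0092. The 3 genes below 0 with the lower dose were Itgae, Foxp3 and Xcl1. With isoniazid 20 of 34 lay above 0, with a median of 0.044, against 52.8% and 0.0089 over all genes. By time, isoniazid gave 29 of 34 above 0 at 7 days and 11 of 34 at 14 days, with medians of 0.14 and -0.13. Over all genes 53.7% and 50.5% lay above 0, with medians of 0.0147 and 0.00181. These treatments share their control lungs, and the genes vary together between animals, so the counts are descriptions.

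**Figure D3:**
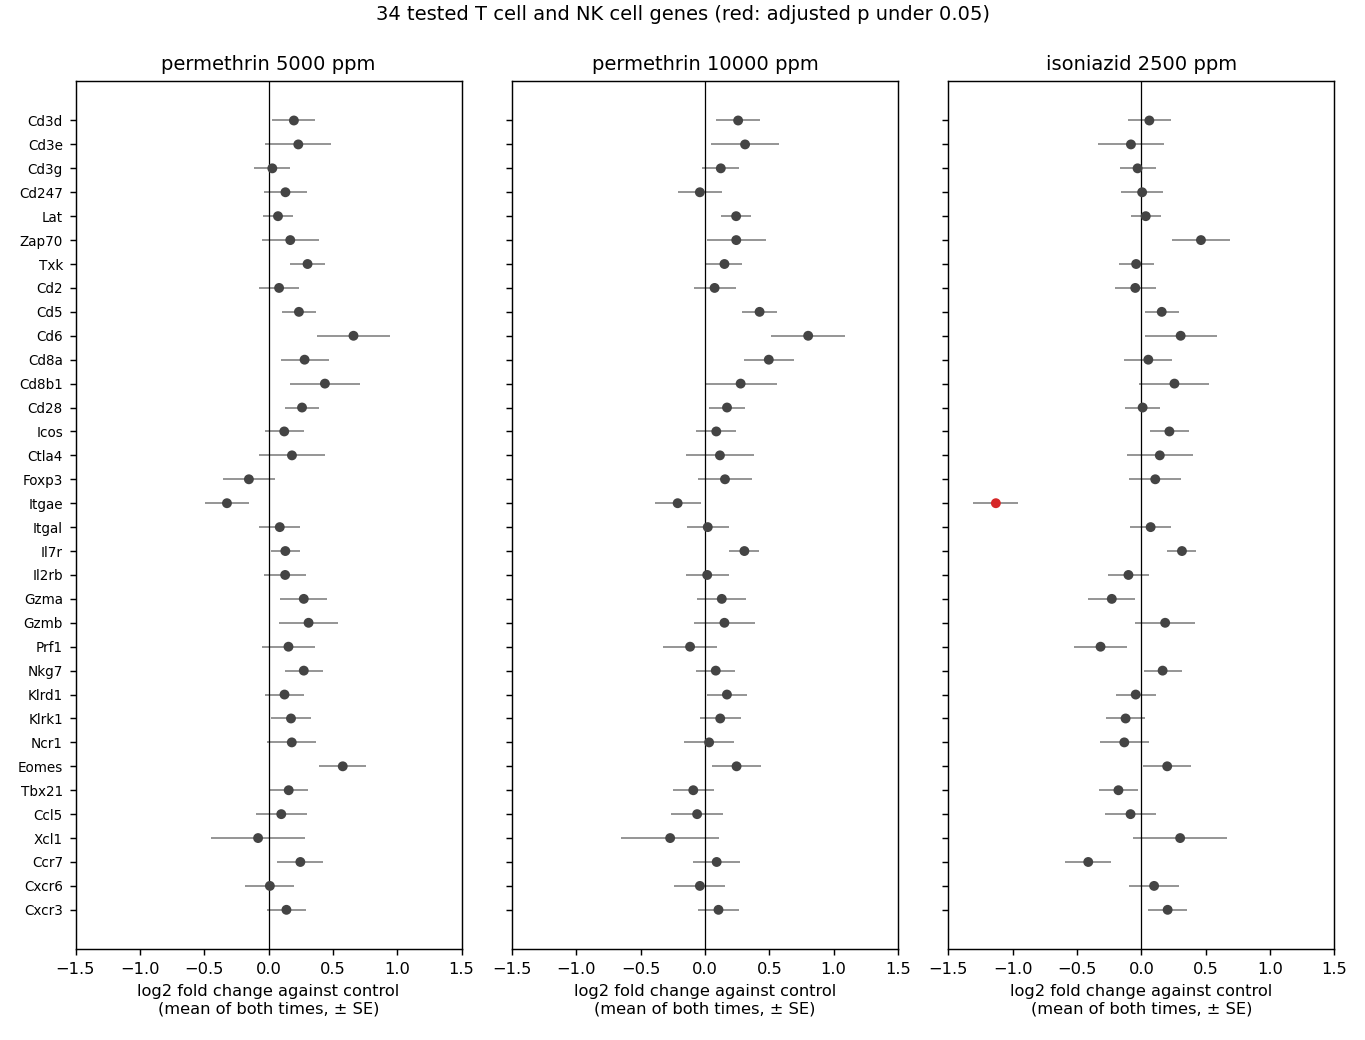
Log2 fold change against control in the mean of both times (horizontal axes, ± SE of the model) for each of the 34 tested genes (vertical axes), in 1 panel per treatment. Itgae with isoniazid, at -1.13, is the only point past the threshold and stands apart from the other 33, which lie between -0.41 and 0.46 there.

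Whether Itgae moved with the other T cell and NK cell genes was asked first of the response to isoniazid, as a description. In the mean of both times Itgae had a log2 change of -1.13, and the other 33 genes had changes from -0.41 (Ccr7) to 0.46 (Zap70). The nearest genes after Ccr7 were Prf1 at -0.32 and Gzma at -0.23. At the other end, the Zap70 probe set had r of only -0.122 to 0.075 with the CD3 chains, as given above. The CD3 chains lay between -0.08 and 0.06. In that mean the Itgae signal was thus lower in lungs whose CD3 signals were close to those of control lungs. By time, the mean of the CD3 chains was 6.05 against 5.87 in control lungs at 7 days and 5.80 against 6.0 at 14 days. The change of the isoniazid effect from 7 to 14 days was below 0 for 30 of the 34 genes, Itgae among them, with a median of -0.28. Above 0 lay 4 of the 34 and 47.0% of all genes, and no gene was called.

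Between animals of the same group, calls of correlation with Itgae depended on the set of genes over which p-values were adjusted. Deviations from group means over 39 lungs were compared by permutation within groups, with p-values adjusted over all 13019 other genes tested. None of the 33 genes passed, nor did any other gene (0%), and the smallest adjusted p was 0.633 by Pearson's r and 0.711 by Spearman's rho. A single gene could not have passed there, since the smallest possible permutation p was 1e-05. Adjusted over the 33 genes alone, as first designed, 5 passed by Pearson's r and 0 by Spearman's rho. They were Cd247, Cd8b1, Lat, Cd3d and Cd2 (permutation adjusted p of 0.039 to 0.0407), and 0 passed without the 2 lungs of most extreme Itgae. At an unadjusted permutation p under 0.05, 8 of the 33 genes and 7.87% of all genes stood by Pearson's r, and 4 of the 33 and 6.61% of all genes by Spearman's rho. The 33 genes had a median r of 0.214, with 28 above 0, against a median of 0.0786 and 64.0% above 0 over all genes.

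The highest r among the 33 was that of Cd247, 0.575 (permutation p = 0.00132, adjusted over all genes 0.633). Its rho was 0.42 (permutation p = 0.0176, adjusted over all genes 0.711). Cd8b1, Lat, Cd3g, Cd3d and Cd2 followed with r of 0.536, 0.497, 0.485, 0.467 and 0.461 and rho of 0.452, 0.426, 0.262, 0.325 and 0.379, and Cd3e had r = 0.0907. An r of at least 0.461 was reached by 6 of the 33 genes and by 2.13% of all genes.

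The values differed between times. Within the 20 lungs of 7 days the median r of the 33 genes was -0.011 and that of Cd247 was 0.172, and within the 19 lungs of 14 days they were 0.286 and 0.758. Without the pair of lungs of most extreme Itgae, isoniazid replicate 3 and permethrin 10000 ppm replicate 3 at 14 days, the r of Cd247, Cd8b1, Lat, Cd3d and Cd2 was 0.405, 0.345, 0.461, 0.327 and 0.295. Both of those lungs had a high Gapdh ratio (0.94 and 1.26), and without all 7 arrays of high ratio the r of Cd247 was 0.375.

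The other genes fell into visible groups of their own, which were picked after the correlations were seen and are given as a description over 39 lungs. Of 561 pairs among the 34 genes, 482 had r above 0, with a median of 0.28. A share over pairs of all genes is not given here, and with Itgae 64.0% of all genes had r above 0. Pairs among the 4 CD3 chains ran from 0.406 to 0.834, the highest being Cd3d with Cd3g. Pairs among Gzma, Klrd1, Ccl5, Nkg7, Gzmb, Klrk1 and Tbx21 ran from 0.537 to 0.876, the highest being Gzma with Klrd1, with a median of 0.723. Between these 2 groups the median was 0.299. Itgae had a median r of 0.476 with the CD3 chains and of 0.0174 with the Gzma group. With Cd3d, Cd3e, Cd3g and Cd247 its r was -0.00387, -0.365, -0.0555 and 0.172 within 7 days. Within 14 days it was 0.724, 0.198, 0.63 and 0.758. Without the 7 arrays of high Gapdh ratio it was 0.245, 0.0223, 0.134 and 0.375. With the Gzma group it ran from -0.267 to 0.0876 within 7 days and from -0.153 to 0.438 within 14 days.

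**Figure D4:**
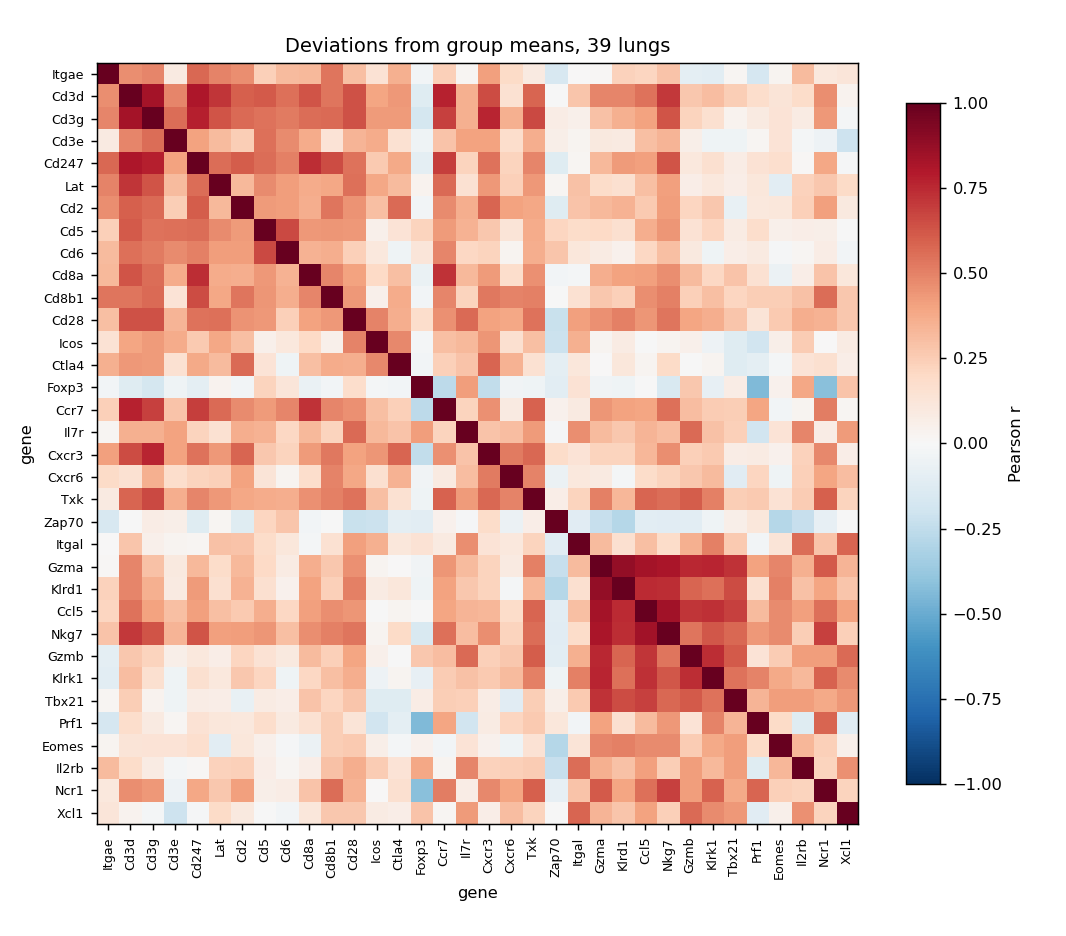
Pearson correlation (colour scale from -1 to 1) of deviations from group means over 39 lungs, for each pair of the 34 genes (both axes). The CD3 chains form a block at the upper left (r of 0.406 to 0.834) and Gzma to Tbx21 a block at the lower right (0.537 to 0.876), while the Itgae row is pale beside the latter.

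Of all 13020 genes, those whose deviations were most like Itgae were C030034I22Rik (r = 0.667), Cbx3 (0.651), Cldn1, Art1, G3bp1, Ift88, Tnfaip6, Gimap7, Glt28d2 and Morn5 (0.603), over 39 lungs and with none of the 34 among them. For the mean of the CD3 chains the closest genes outside the chains themselves were Trbv1 (0.849), a T cell receptor segment, and Ptprcap (0.758), a partner of CD45, followed by Dapl1, Mterf1a, Def6 and Cd69 (0.70). The closest to Gzma were Klrd1, Ccl5, Nkg7, Klrk1 and Gzmb (0.876 to 0.75), followed by Ikzf3, Arhgdib, H2-M3, Ly9 and Tbx21 (0.723).

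The partner, ligand and regulators of CD103 showed no called change. Of 16 listed genes 15 were tested and 0 passed in limma in any comparison. Itgb7, the beta 7 chain, had a log2 change of -0.14 (SE 0.17, limma adjusted p = 0.859) with isoniazid in the mean of both times, and Cdh1, E-cadherin, 0.06 (SE 0.09, limma adjusted p = 0.905). Runx3, a transcription factor needed for CD103 on cytotoxic T cells, had -0.28 (SE 0.16, limma adjusted p = 0.633).

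Of 6 tested markers of dendritic cell 1, 2 were called lower with isoniazid, Irf8 and Wdfy4. The list held 9 markers, of which Xcr1 and Flt3 lay below the limit on low signals, and Clec9a had no probe set of its own. Irf8, a transcription factor these cells need that B cells also express, had a log2 change of -0.48 (SE 0.10, limma adjusted p = 0.0150) with isoniazid in the mean of both times. Wdfy4, which these cells use for cross-presentation, had -0.71 (SE 0.15, limma adjusted p = 0.0216). Irf8 was not called without the arrays of high Gapdh ratio (adjusted p = 0.135), with median centring (0.111) or with only the compared groups (0.0794), nor Wdfy4 without the arrays of high ratio (0.128) or without isoniazid replicate 5 at 14 days (0.0629). Tlr3, Batf3 and Cadm1 were lower too but not called, with log2 changes of -0.18, -0.20 and -0.12 in the mean of both times. Their limma adjusted p were 0.370, 0.807 and 0.728. At 7 and 14 days the changes were -0.13 and -0.24 for Tlr3, -0.05 and -0.35 for Batf3 and -0.20 and -0.03 for Cadm1. The 6 markers had a mean log2 signal of 6.88 ± 0.12 in control and 6.37 ± 0.21 in isoniazid lungs at 7 days, and 6.86 ± 0.22 and 6.31 ± 0.25 at 14 days (SD, n = 5 each). Uncalled Cd207, langerin, carried much of this, with means of 4.16 and 2.89 at 7 days and 3.91 and 2.16 at 14 days, below the limit of 3.43 in isoniazid lungs. Without it the mean of the other 5 markers was 7.43 ± 0.0908 against 7.07 ± 0.135 at 7 days and 7.45 ± 0.133 against 7.14 ± 0.137 at 14 days.

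A fit with the mean of the 6 markers as a covariate gave Itgae a log2 change of -0.85 (limma adjusted p = 0.611) in the mean of both times. That covariate was chosen after seeing the data and itself differs between the groups, so it takes up part of the treatment difference and says nothing of the source of the signal. Between animals of the same group, none of the 6 markers passed a permutation test against Itgae, the closest being Cd207 with r = 0.414 (permutation p = 0.0394, adjusted 0.237) and rho = 0.316 (permutation p = 0.0778, adjusted 0.467). Means of other marker lists also differed between these groups, with 0 of their genes called with isoniazid in limma.

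The 10 tested B and plasma cell markers had means of 5.93 (5.34 to 6.44) in isoniazid against 6.67 (6.42 to 7.02) in control lungs at 7 days and 5.88 (5.49 to 6.19) against 6.20 (5.36 to 7.52) at 14 days. The 5 lymph node markers had 5.77 (5.17 to 6.41) against 6.26 (6.13 to 6.46) and 5.54 (5.29 to 5.81) against 5.76 (5.11 to 6.84). The 5 liver markers had 5.95 (3.84 to 7.58) against 6.96 (4.68 to 8.14) and, without overlap, 4.67 (3.68 to 5.35) against 6.31 (5.41 to 6.91). The 9 cardiac muscle markers were lowest in control lungs at 14 days, with 7.62 (6.75 to 8.54), against 8.84 (8.08 to 9.88) in isoniazid lungs. Permethrin lungs at 14 days had 8.78 and 8.77 with the lower and higher dose. At 7 days control lungs had 9.34 and isoniazid lungs 9.06. The 6 brown fat markers were also lowest in control lungs at 14 days, with 5.34, against 6.37, 6.83 and 6.40 with the lower dose, the higher dose and isoniazid. The part of these tissues and cells in the Itgae result was not tested.

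**Figure D5:**
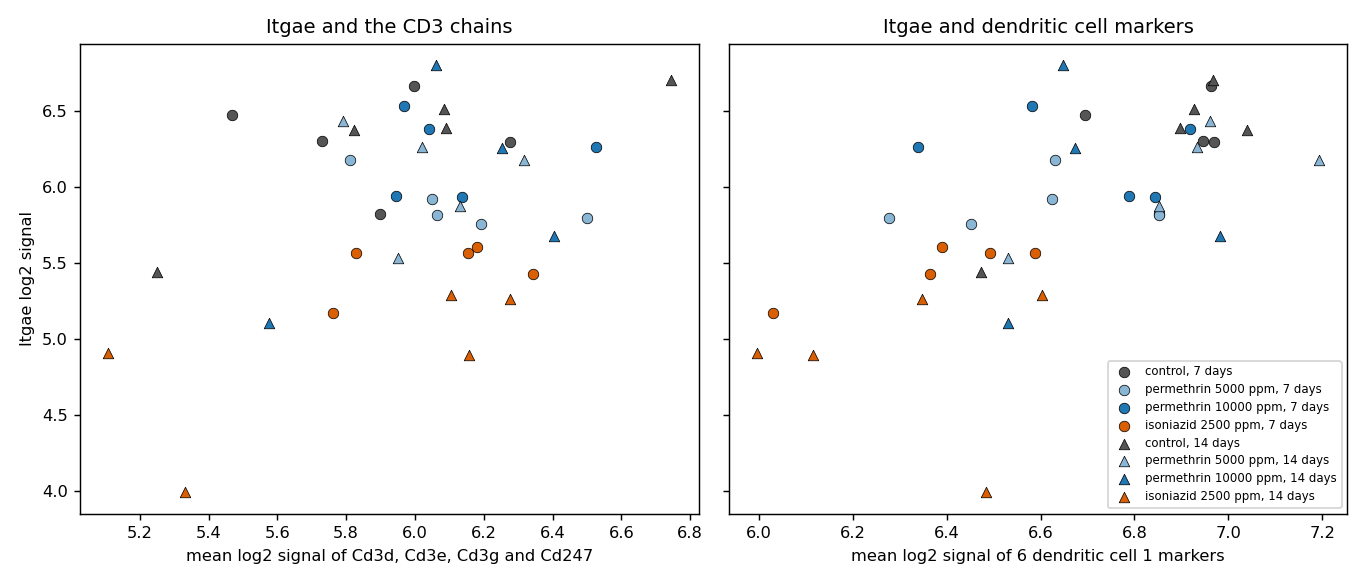
Itgae log2 signal (vertical axis) against the mean log2 signal of the CD3 chains (left) and of 6 dendritic cell 1 markers (right) in each of 39 lungs, with colours for diet, circles for 7 days and triangles for 14 days. Isoniazid lungs spread over much of the CD3 range (5.11 to 6.34) but lie toward the left on the marker axis (6.0 to 6.6).

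Of other genes of T cell receptor signalling, 27 of 39 listed were tested and 0 passed in any comparison between groups in limma. Ets1 and Bcl11b, transcription factors of T cell development, passed the test of any difference among the 8 groups (limma adjusted p = 0.00398 and 0.0280). Their means were lower at 14 than at 7 days in each diet group, as in control lungs, where Ets1 was at 11.22 ± 0.18 and 10.77 ± 0.26 and Bcl11b at 6.35 ± 0.08 and 5.92 ± 0.41 (SD, n = 5 each). Cdh5, an endothelial marker, passed the same test (limma adjusted p = 0.00669). It was at 11.1 ± 0.14 and 10.79 ± 0.19 in control lungs at 7 and 14 days (SD, n = 5 each). Which cells gave the Ets1 signal was not tested. Of other NK and cytotoxic genes, 19 of 29 were tested, and 1, Irf8, passed in a comparison between groups, the fall with isoniazid given above. Irf8 and Zeb2, a factor of late NK cell maturation, passed the test of any difference (limma adjusted p = 0.0410 and 0.0265).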

How the data were processed

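Total RNA from 39 lungs was labelled with a kit primed at the 3' end and hybridized to Affymetrix arrays, 1 array per animal, per the labels' protocols. The deposited values are signal intensity on a linear scale, deposited as MAS5 output (submitters' processing notes, with the version not given in the sources used here). The trimmed mean of each deposited array is 100.0, array medians ran from 17.4 to 26.2, and no arrays were identical. Image processing and probe summary could not be varied.

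Intensities were log2 transformed without a pseudocount and quantile normalized, which removes change shared by most genes. Of 45101 probe sets, 64 are controls, 34945 carry 1 symbol, 932 several and 9160 none. For each of 18193 genes the probe set with the largest mean was kept, and 13020 with a mean log2 signal of at least 3.43 (the upper 60% of probe sets, a signal of 10.8) were tested. A higher signal of one probe set than of another reflects the probes too and is no measure of relative RNA amount.

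Linear models with 1 mean per group (limma 3.58.1, trend, under R 4.3.3) took in every array and gave 16 comparisons, two-sided p-values and Benjamini-Hochberg adjustment over all genes. The limma fit was tested on simulated data with independent noise, and the other steps were not. Errors in the text are SEs of the model or SDs of animals, and the number of arrays limits the precision. Correlations used deviations from group means with 100000 permutations within groups. Given in full are Itgae, the CD3 chains, called genes and the gene of smallest p in each comparison with control of the same time, and of other lists the called genes. The members and lists were chosen with earlier results of these data known. Alternatives changed the scaling, filter, trend, samples, weights, replicate block, Gapdh ratio (as a covariate or as a limit of 0.7) and pseudocount (4), and left out each animal. A further alternative tested every probe set but still read each gene from its brightest probe set. The covariates of marker means, the marker correlations, the marker mean without Cd207 and the adjustment of the Itgae correlations over all genes were added after seeing the data. Differences between Itgae and each other gene were computed too but are not reported, since they restate the Itgae change.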

Additional observations from a re-analysis of the deposited data

Results flagged for a closer look

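Of 80 groups of lungs checked for a single animal far from the others (10 genes in 8 groups), 6 had one, and chance gives about 1 in 20. Itgae had its lowest control lung of 14 days at 5.44 (replicate 2). The same lung held the lowest Cd6 signal of its group, 1.87, and at 7 days control replicate 1 held the lowest Cd6, 1.63. Cd3e was at 2.77 in isoniazid replicate 4 at 14 days, where Cd6 was also lowest in its group (2.43). Gzma was highest, at 10.05, in control replicate 5 at 7 days, and lowest, at 8.14, in isoniazid replicate 2 at 14 days.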

How the results depend on the processing

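Itgae with isoniazid in the mean of both times was called under 33 of 34 alternatives, with log2 changes of -1.24 to -0.85. The exception was the dendritic cell marker mean as a covariate, which was chosen after seeing the data and itself falls with isoniazid, and which left 0 called genes for that comparison, for isoniazid at 14 days, for the higher permethrin dose against isoniazid (Itgae 0.73, adjusted p = 0.256) and for the test of any difference. At 14 days the count also fell from 1 to 0 with only the compared groups, with array weights and without the arrays of high Gapdh ratio, and it ranged from 0 to 1 when single animals were left out. At 7 days array weights raised it to 1 (Itgae -0.88, adjusted p = 0.0415). Uncalled values that changed sign were Itgae with permethrin 10000 ppm at 14 days (0.07 with array weights, 0.18 without high Gapdh arrays) and at 7 days (0 with the marker covariate), and Cd6 with isoniazid at 14 days (0.22 with the marker covariate). Irf8 was not called with median centring (adjusted p = 0.111), with only the compared groups (0.0794), without high Gapdh arrays (0.135) or with the marker covariate, and Wdfy4 without high Gapdh arrays (0.128), without isoniazid replicate 5 at 14 days (0.0629) or with that covariate. With p-values adjusted over all genes 0 of 33 correlations with Itgae passed, and over the 33 genes alone, as first designed, 5 did, 0 within 7 days, without the 2 extreme lungs, without high Gapdh arrays and on the deposited scaling, and 7 with median centring. The causes were not tested.

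Same-numbered lungs of different groups deviated together with a mean r of 0.0321 (-0.336 to 0.366). For lungs of different numbers and groups it was -0.00772 (-0.315 to 0.4). These were 133 pairs of the same number and 532 of different numbers. Of 39 lungs, 13 correlated best with their own number, a count given without a chance level. Whether the numbers link the lungs was not settled. With a replicate block, the called genes were the same, 1 for isoniazid at 14 days and in the mean of both times (Itgae -1.13, adjusted p = 0.000296), and 0 at 7 days, and over all genes the count moved from 15 to 74 for control at 14 against 7 days and from 4 to 7 for isoniazid at 14 days. Over all genes, under settings other than leaving out single animals, the count for isoniazid in the mean of both times was 51, and 18 with median centring, 25 with only the compared groups, 19 without high Gapdh arrays and 3 with the marker covariate. For isoniazid at 7 days it was 6, and 2 to 72 over these settings, array weights giving the most, and for isoniazid at 14 days it was 4, and 1 to 7. For permethrin 5000 ppm it was 12 at 7 days (25 with array weights), 17 at 14 days (8 with median centring, 10 with only the compared groups or without high Gapdh arrays) and 29 in the mean (18 with median centring). For permethrin 10000 ppm it was 31 at 7 days (20 with median centring), 28 at 14 days (9 with only the compared groups, 71 with array weights) and 65 in the mean (129 with array weights). Permethrin doses differed in 1 gene (0 to 4), control times in 15 (0 to 278) and any groups in 280 (74 with median centring, 138 with the Gapdh ratio as a covariate, 473 with the CD3 covariate, 493 on the deposited scaling, 941 with array weights).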
